A study of Mus musculus with 40 samples.

Results

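The nuclear-encoded genes for subunits of respiratory complexes II to V were followed in whole brain RNA of 40 male mice. The set was every array probe whose gene symbol was Sdha, Sdhb, Sdhc, Sdhd or Cyc1 or began with Uqcr, Cox4 to Cox8 or Atp5. It held 55 probes for 46 genes, of 25697 probes for 16593 genes on the array. Complex II had 6 probes for 3 genes, complex III 10 probes for 9 genes, complex IV 21 probes for 18 genes and complex V 18 probes for 16 genes. No probe was matched to Sdha, the flavoprotein of complex II, which was not analysed here. Cox7a2l, which matches the name rule, encodes an assembly factor of respiratory supercomplexes rather than a catalytic subunit.

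These complexes carry electrons from succinate and ubiquinol to oxygen and use the proton gradient to make ATP. Succinate dehydrogenase (complex II) passes electrons to ubiquinone, the cytochrome bc1 complex (complex III) hands them to cytochrome c, cytochrome c oxidase (complex IV) reduces oxygen, and ATP synthase (complex V) makes ATP. Neurons draw most of their ATP from this chain, and several complex IV subunits exist as isoforms typical of heart and skeletal muscle, lung or testis.

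All animals were C57BL/6J males of 9 weeks, whose dams had been fed a low fat (LF) or high fat (HF) diet before and during pregnancy and until weaning. The offspring were fed LF or HF from weaning. Groups are written maternal diet/post-weaning diet, and LF/LF, LF/HF, HF/LF and HF/HF held 10 animals each, 1 Illumina array per animal. The animals came from 12 breeding cages, 6 of LF-fed and 6 of HF-fed dams, so that some were litter mates, and 5 of these cages gave animals to both post-weaning diets. The dams' diet before birth and during suckling was the same, so prenatal and suckling effects cannot be told apart.

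Levels are log2 of the fluorescence intensity, and they are compared between animals for the same probe only. A probe was kept when it exceeded background in at least 20 of the 40 arrays. This left 14381 probes, among them 48 of the 55 respiratory probes, for 42 of the 46 genes. Arrays correlated with each other at 0.922 to 0.996 (median 0.982). Of the 40 arrays, 5 stood apart by a lower mean correlation with the rest (2 LF/LF, 2 HF/LF and 1 HF/HF). Kept were 10 of 12 neuron, 8 of 9 astrocyte, 8 of 10 oligodendrocyte and 7 of 9 microglia markers, beside 14381 of all 25697 probes. The neuron markers Snap25 and Nefl were not kept. Of the markers on the array, 4 of 12 for skeletal muscle and heart were kept and 5 of 5 for blood. The tissue is as labelled, and these counts are weak support for it.

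No respiratory gene passed the test for a difference with the maternal or the post-weaning diet. In each of the 4 comparisons between groups and in their interaction, 0 of the 48 probes passed an adjusted p of 0.05 (limma, Benjamini-Hochberg adjustment), and 0% of all 14381 probes did. The median difference of the 48 probes was -0.01 for HF/LF against LF/LF, 0.01 for HF/HF against LF/HF, -0.01 for LF/HF against LF/LF and -0.01 for HF/HF against HF/LF. Over all probes the medians were 0.00, -0.02, 0.03 and 0.00 in the same order. For all 48 probes the values of the groups overlapped in each of the 4 comparisons. The same was not counted over all 14381 probes, so this overlap cannot be called a trait of the respiratory set. In whole brain RNA, fewer cells of a type and less RNA per cell cannot be told apart.

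At an unadjusted p under 0.05, no respiratory probe passed for the maternal diet, against 1.38% of all probes in offspring fed LF and 4.43% in offspring fed HF. For the post-weaning diet, 1 of 48 passed between LF/HF and LF/LF, where 5.51% of all probes did, and 0 between HF/HF and HF/LF, where 1.2% did. For the interaction 2 of 48 passed, against 0.96% of all probes. By any other setting that was run, the number of respiratory probes passing the adjusted p was also 0. Most estimates were narrow. The 95% interval of the difference lay between -0.25 and 0.25 for 33 to 34 of the 48 probes in each comparison, while the remaining intervals were wider and leave larger differences in either direction undetected.

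**Figure D1:**
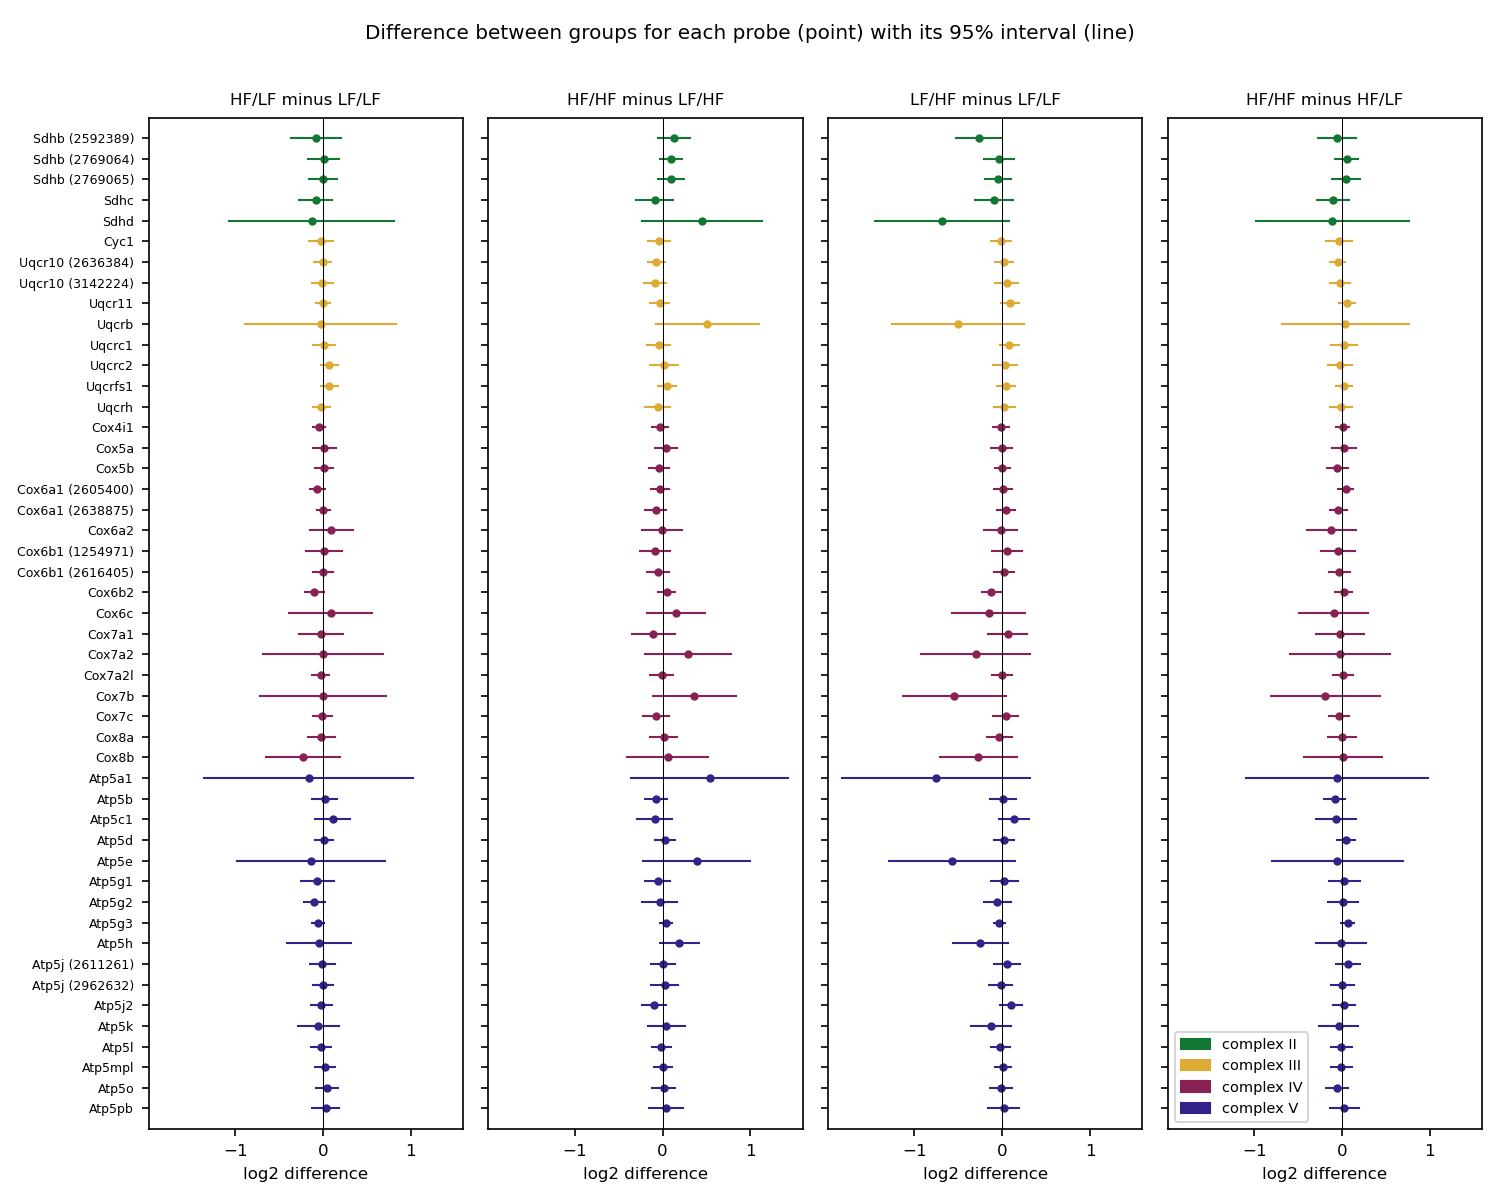
Log2 difference between group means (points) with 95% intervals (lines) for 48 probes of complexes II to V in the 4 comparisons, coloured by complex. Most intervals are narrow and centred near 0, while Sdhd, Uqcrb, Cox7a2, Cox7b, Atp5e and Atp5a1 have wide intervals that all include 0.

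Complex II was represented by its iron-sulphur subunit Sdhb and its membrane anchors Sdhc and Sdhd. Sdhd was the most variable. Its level ran from 6.69 to 9.51 (median 7.80) in LF/LF, from 6.97 to 8.71 (median 7.14) in LF/HF, from 6.94 to 9.51 (median 7.43) in HF/LF and from 6.99 to 9.49 (median 7.34) in HF/HF. Each group thus held animals near 7 and animals above 8, and the groups overlapped. The Sdhd difference of LF/HF from LF/LF was -0.69 ± 0.37 (SE, n = 10 per group, 95% interval -1.45 to 0.08, adjusted p = 0.717 by limma), with 8 of 10 LF/HF animals below the LF/LF mean. The difference of HF/HF from LF/HF was 0.45 ± 0.33 (adjusted p = 0.853 by limma), and this comparison shares the LF/HF animals with the one before.

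Sdhb was measured by 3 probes. The probe ILMN_2769064 ran from 10.04 to 10.72 in LF/LF (median 10.26), 10.11 to 10.44 in LF/HF (median 10.26), 10.11 to 10.51 in HF/LF (median 10.28) and 10.14 to 10.58 in HF/HF (median 10.40). The groups overlapped, with the highest median in HF/HF. ILMN_2769064 and ILMN_2769065 were above background in all 40 arrays and correlated at 0.77 over the arrays, while ILMN_2592389 was above background in 25 only. This dim probe had the second smallest p of the set in LF/HF against LF/LF (-0.26 ± 0.13, unadjusted p = 0.0511, adjusted p = 0.717 by limma), where all 10 LF/HF animals lay below the LF/LF mean. The 2 bright probes gave -0.04 ± 0.08 and -0.05 ± 0.07 for the same animals. Sdhc (ILMN_2594149) had differences between -0.10 and -0.08 in all 4 comparisons, with standard errors of 0.09 to 0.10, and its other probe was above background in 5 arrays.

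In complex III, 9 of 10 probes were kept. Uqcrc1 and Uqcrc2 encode its core proteins, Cyc1 the cytochrome c1 haem subunit, and Uqcrb, Uqcrh, Uqcr10 and Uqcr11 small accessory subunits. Cyc1 was at 10.91 to 11.30 in LF/LF (median 11.06), 10.90 to 11.29 in LF/HF (median 11.06), 10.73 to 11.31 in HF/LF (median 11.08) and 10.81 to 11.19 in HF/HF (median 11.07). The group medians of Cyc1 lay within 0.02 of each other, and its differences were -0.04 to -0.01 with standard errors of 0.05 to 0.07. Uqcr11 was 12.62 to 12.91 (median 12.76) in LF/LF and 12.69 to 13.05 (median 12.87) in LF/HF, a difference of 0.09 ± 0.05 (adjusted p = 0.717 by limma). Its difference of HF/HF from HF/LF was 0.06 ± 0.04. The 2 probes of Uqcr10 followed each other across the arrays (r = 0.87) and gave -0.07 ± 0.05 and -0.09 ± 0.06 for HF/HF against LF/HF.

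Uqcrb stood out in complex III by its spread. It ran from 9.45 to 12.29 (median 10.80) in LF/LF, 9.78 to 11.51 (median 10.12) in LF/HF, 9.88 to 12.08 (median 10.44) in HF/LF and 9.98 to 12.17 (median 10.59) in HF/HF. The groups overlapped, and the highest LF/HF animal lay below the highest animal of each other group. It had the smallest p of the set for HF/HF against LF/HF, with 0.51 ± 0.28 (95% interval -0.07 to 1.09, unadjusted p = 0.0839, adjusted p = 0.853 by limma) and 6 of 10 HF/HF animals above the LF/HF mean. Uqcrc1 and Uqcrc2 had differences from -0.05 to 0.08 with standard errors of 0.05 to 0.08, and Uqcrh, the hinge protein, from -0.05 to 0.02. Uqcrfs1, the Rieske iron-sulphur protein, was above background in 21 arrays only, and Uqcrq in 1.

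Complex IV had 17 of 21 probes kept, and Cox4i1 was among the steadiest of all probes. Cox4i1, a core nuclear-encoded subunit, was 13.32 to 13.52 in LF/LF (median 13.37), 13.24 to 13.62 in LF/HF (median 13.39), 13.29 to 13.40 in HF/LF (median 13.34) and 13.24 to 13.51 in HF/HF (median 13.35). Its group medians lay within 0.05, and its SD within groups was 0.0753, a value that only 0.153% of all kept probes reached or undercut. The differences were -0.05 ± 0.03, -0.03 ± 0.04, -0.01 ± 0.04 and 0.01 ± 0.03 in the order of the 4 comparisons above. Cox5a, Cox5b, Cox6a1, Cox6b1, Cox7c and Cox8a, further subunits found in most tissues, had no difference outside the range from -0.09 to 0.05 in the 4 comparisons. Cox6a1 and Cox6b1 were each read by 2 probes, which correlated at 0.61 and 0.86 over the arrays.

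The isoforms of complex IV that are typical of other tissues fell in 2 sets. Cox4i2 (a lung isoform), Cox7b2 and Cox8c (known from testis) were not above background in most arrays, with 6, 0 and 0 arrays over it. Of the isoforms known from heart and skeletal muscle, Cox6a2 and Cox7a1 were above background in 40 arrays each and Cox8b in 38. Cox6b2, known from testis, had a probe above background in 40 arrays and another in 2. Cox6a2 ran from 9.41 to 9.96 in LF/LF (median 9.50), 9.26 to 10.00 in LF/HF (median 9.54), 9.21 to 10.25 in HF/LF (median 9.69) and 9.13 to 9.97 in HF/HF (median 9.54). Cox7a1 ran from 7.64 to 8.28 (median 7.95), 7.61 to 8.35 (median 8.15), 7.41 to 8.49 (median 8.06) and 7.58 to 8.50 (median 7.84) in the same order. The groups overlapped for both, and no difference of either exceeded 0.12 in size. The genes most like Cox7a1 over the 40 arrays were Metrn (r = 0.91) and Cd63 (r = 0.90), and the one most like Cox6a2 was Xylt2 (r = 0.80).

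Skeletal muscle and heart markers were mostly at background in these brains. Of 12 on the array 8 were not kept, Ckm, Mb, Myh1, Myh4 and Myh7 among them, and the 4 kept (Tnni2, Myh6, Acta1 and Actn3) had 0 calls in all comparisons.

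Cox6b2 was the member with the smallest unadjusted p for LF/HF against LF/LF. It ran from 6.71 to 7.08 (median 6.88) in LF/LF, 6.60 to 6.85 (median 6.77) in LF/HF, 6.67 to 6.87 (median 6.81) in HF/LF and 6.59 to 6.94 (median 6.81) in HF/HF. All 10 LF/HF animals lay below the LF/LF mean, although the groups overlapped. The difference was -0.12 ± 0.05 (95% interval -0.23 to -0.02, unadjusted p = 0.0241, adjusted p = 0.717 by limma). For HF/LF against LF/LF it was -0.10 ± 0.05 (adjusted p = 1.00 by limma), a comparison with the same LF/LF animals, and the interaction was 0.14 ± 0.07 (unadjusted p = 0.0364, adjusted p = 0.998 by limma).

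Cox7b and Cox7a2, 2 of the ubiquitous subunits of complex IV, varied far more between animals than the others. Cox7b ran from 7.45 to 9.98 in LF/LF (median 8.16), 7.42 to 8.73 in LF/HF (median 7.91), 7.70 to 9.68 in HF/LF (median 8.18) and 7.50 to 9.62 in HF/HF (median 8.14). Cox7a2 ran from 7.74 to 10.06 (median 8.68), 7.97 to 9.46 (median 8.41), 8.21 to 9.86 (median 8.49) and 8.01 to 9.94 (median 8.56) in the same order. The groups overlapped for both genes, and the highest LF/HF animal was below the highest of each other group. LF/HF differed from LF/LF by -0.55 ± 0.28 for Cox7b (95% interval -1.14 to 0.04, 9 of 10 animals below the LF/LF mean) and by -0.30 ± 0.30 for Cox7a2, and neither passed (adjusted p of at least 0.717 by limma). Cox6c was also variable, from 12.04 to 13.74 over the 40 brains, with differences of at most 0.16 in size.

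Complex V had 17 of 18 probes kept. Atp5b, the catalytic beta subunit, was 14.05 to 14.63 in LF/LF (median 14.35), 14.18 to 14.57 in LF/HF (median 14.33), 14.13 to 14.57 in HF/LF (median 14.36) and 14.13 to 14.52 in HF/HF (median 14.24). Its largest difference in the 4 comparisons was -0.08 ± 0.06 for HF/HF against HF/LF (unadjusted p = 0.166). The membrane ring of the enzyme is built from subunit c, whose mature protein 3 genes encode, and these were measured by Atp5g1, Atp5g2 and Atp5g3. Atp5g3 had the smallest SD within groups of the whole set (0.0614).

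Its levels were 13.92 to 14.15 in LF/LF (median 14.06), 13.94 to 14.07 in LF/HF (median 14.01), 13.89 to 14.07 in HF/LF (median 13.98) and 13.92 to 14.21 in HF/HF (median 14.05). Atp5g3 had the smallest p of the set for HF/HF against HF/LF (0.06 ± 0.04, unadjusted p = 0.0853) and for the interaction (0.10 ± 0.04, unadjusted p = 0.0319, adjusted p = 0.998 by limma). The corresponding differences of Atp5g1 and Atp5g2 in the interaction were 0.01 ± 0.11 and 0.07 ± 0.11. Atp5c1, the gamma subunit of the rotor, had a difference of 0.13 ± 0.08 for LF/HF against LF/LF. Of 3 probes for Atp5j, coupling factor 6 of the peripheral stalk, 2 were kept and correlated at 0.23, and the third was above background in 13 arrays. Atp5d, Atp5l, Atp5mpl, Atp5o and Atp5pb had no difference beyond 0.06 in size.

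**Figure D2:**
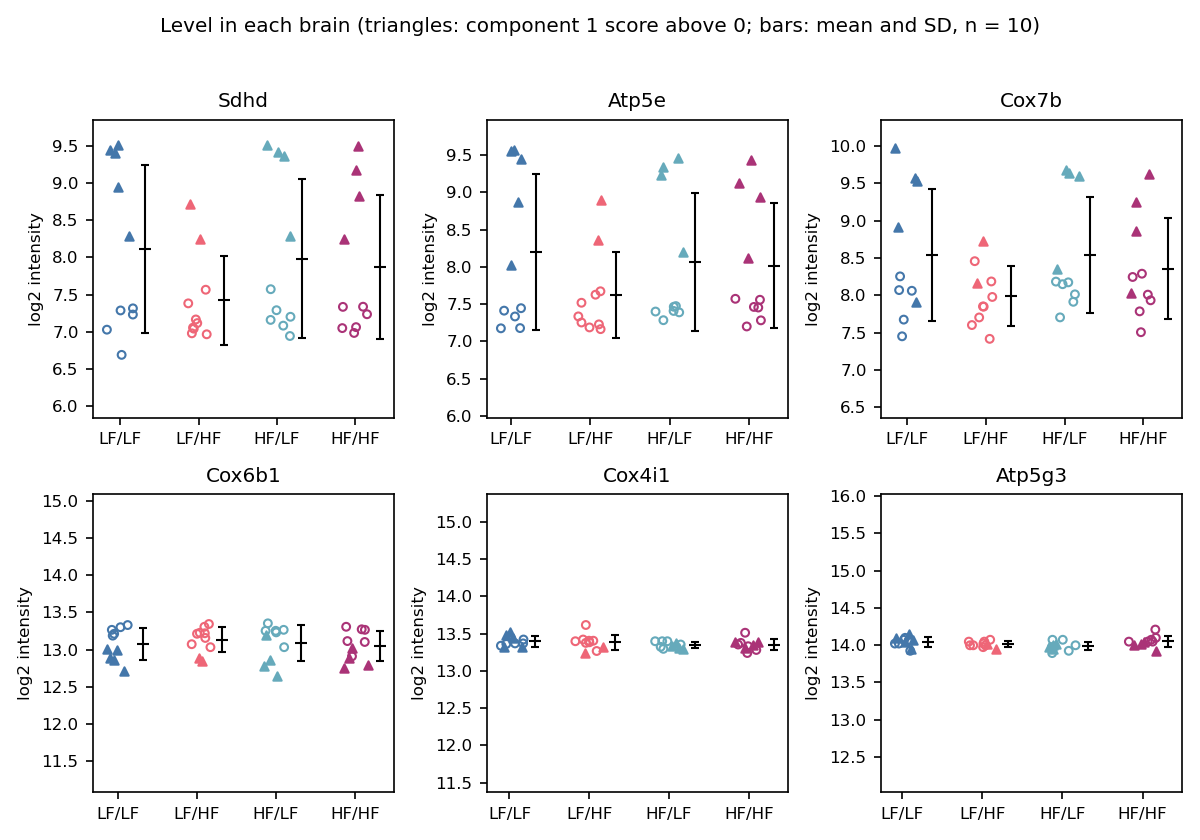
Log2 intensity of 6 genes in each of the 40 brains by maternal/post-weaning diet, on axes of equal length, with the group mean and SD beside the points. Filled triangles mark animals whose array-wide component 1 score is above 0; Sdhd and Atp5e are higher in all these animals than in the others of their group and Cox7b in most, Cox6b1 tends the other way, and Cox4i1 and Atp5g3 hardly vary.

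Atp5a1 (alpha subunit of the ATP synthase head) and Atp5e (epsilon subunit of its central stalk) differed from the rest of complex V by their spread between animals. Atp5a1 ran from 8.65 to 12.28 (median 9.91) in LF/LF, 8.65 to 11.58 (median 9.24) in LF/HF, 8.84 to 12.01 (median 9.53) in HF/LF and 8.72 to 12.07 (median 9.66) in HF/HF, a 12.4-fold range over the 40 brains. Atp5e ran from 7.17 to 9.56 (median 7.73), 7.16 to 8.89 (median 7.43), 7.28 to 9.46 (median 7.47) and 7.20 to 9.43 (median 7.56) in the same order. For both genes high and low animals occurred in every group. The differences of LF/HF from LF/LF were -0.75 ± 0.51 for Atp5a1 and -0.58 ± 0.34 for Atp5e, and neither passed (adjusted p = 0.717 by limma for both).

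The variation between brains of the same group was thus not shared evenly by the set. The SD within groups had a median of 0.147 over the 48 probes and of 0.167 over all 14381, but 9 of the 48 (18.75%) lay above 0.339, the 90th percentile of all kept probes. These were Atp5a1 (1.24), Sdhd (0.960), Uqcrb (0.864), Atp5e (0.860), Cox7b (0.710), Cox7a2 (0.694), Cox8b (0.516), Cox6c (0.476) and Atp5h (0.346). Apart from Cox8b they moved together. The first principal component of the kept probes other than the members took 54.6% of the variance over the 40 arrays, and 7 of the 9 shared over 80% of their variance with it, all in the same direction. The 9 were picked for their spread, and a component of this size weights probes of large spread most. The same share among other probes of high SD was not counted.

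The shared variance was 97.4% for Atp5e, 96.9% for Sdhd, 96.2% for Atp5a1, 95.3% for Cox7a2, 94.5% for Uqcrb, 86.4% for Atp5h and 80.9% for Cox7b, with Cox6c following at 77.9%. Over 80% was thus shared by 7 of the 48 respiratory probes. Of the 14333 kept probes outside the set 7.81% did so, and 7.03% in the same direction. The 7 genes come from all 4 complexes. Each was read by a single probe, and probes of the same gene can differ in this respect. For the complex I gene Ndufa5, the probe ILMN_2691460 followed Sdhd (r = 0.99), while ILMN_1216007 shared 24.8% of its variance with the component. Any pair of the 7 genes correlated between 0.89 and 0.98 over the 40 arrays, which is a description of the same 40 hybridisations. It follows from picking them by their share with 1 component in the same direction. The median over all 1128 pairs of respiratory probes, which include probes that move against the component, was 0.09. At least 50% of the variance was shared by 8 probes in the same direction and by 8 in the opposite direction. The latter were Cox6b1 (78.7% and 60.1% for its probes), Atp5j2 (69.8%), Atp5c1 (67.4%), Uqcr10 (64.7% and 54.4%), Uqcrc1 (64.6%) and Atp5g1 (62.6%), with ranges over the brains of at most 1.76-fold. Another 12 probes shared under 10%, Cox4i1 (0.979%), Atp5g3 (1.54%), Atp5d (0.0106%) and Atp5l (0.00614%) among them. How many probes outside the set shared at least 50% or under 10% was not counted. These counts can therefore not be called traits of the set. The median share was 35.3% over the 48 probes and 27.2% over the 14333 others.

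**Figure D3:**
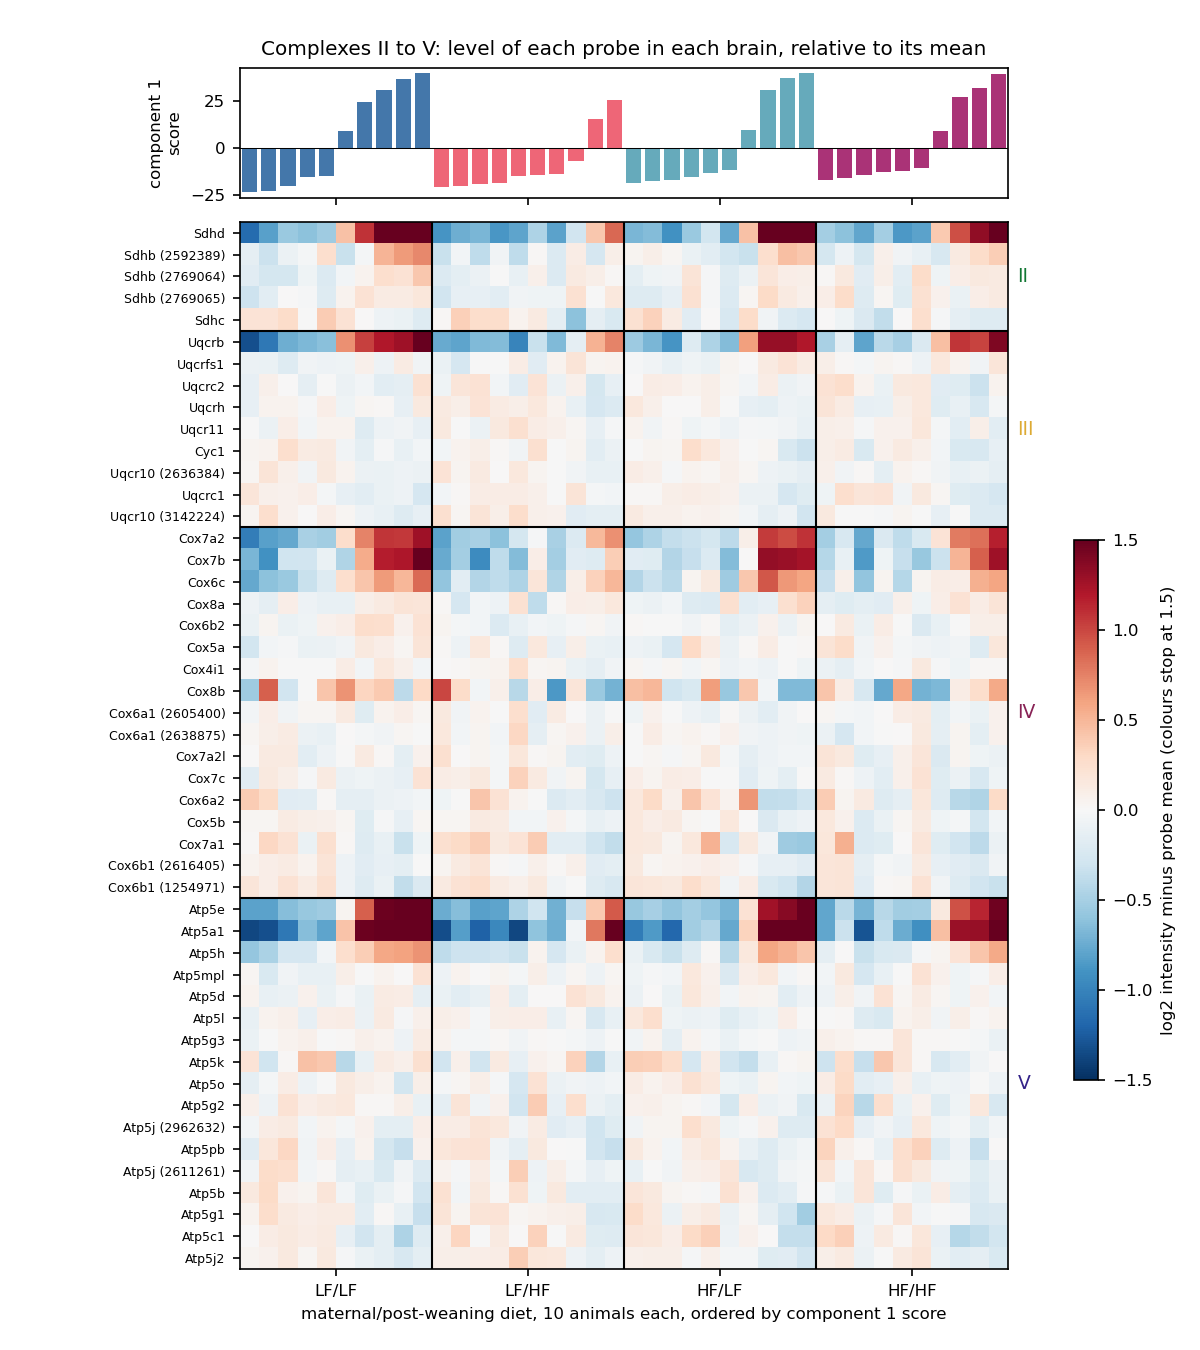
Log2 intensity of 48 respiratory probes (rows, by complex) in 40 brains (columns, by maternal/post-weaning diet and ordered by component 1 score, bars on top) relative to the mean of each probe. Sdhd, Uqcrb, Cox7a2, Cox7b, Cox6c, Atp5e, Atp5a1 and Atp5h tend from blue to red with rising score in every group, and Cox8b follows another order.

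The component score was not a diet group. It was above 0 in 5 of 10 LF/LF, 2 of 10 LF/HF, 4 of 10 HF/LF and 4 of 10 HF/HF animals, and the 5 arrays that stood apart had scores from 36.4 to 39.3, the upper end. The 7 genes had differences of -0.75 to -0.25 for LF/HF against LF/LF. With the component as a covariate these became -0.19 to 0.12, and without the 5 arrays they became -0.35 to -0.03. The 7 genes were picked by their share with this component, so smaller differences with it as a covariate follow from that choice. Of the 5 arrays at its upper end, 2 were LF/LF and 0 were LF/HF. Leaving these arrays out thus lowers the LF/LF means of the 7 genes. Neither fit can therefore tell whether these genes differ with the post-weaning diet. The cages moved the differences of the 7 genes as well. With the cage as a fixed effect the range was -0.52 to -0.12. Without the animals of cage 4 the differences were -0.33 to 0.04, and without those of cage 11 they were -1.28 to -0.42, with no adjusted p below 0.242 by limma in either case. What sets the component was not tested.

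**Figure D4:**
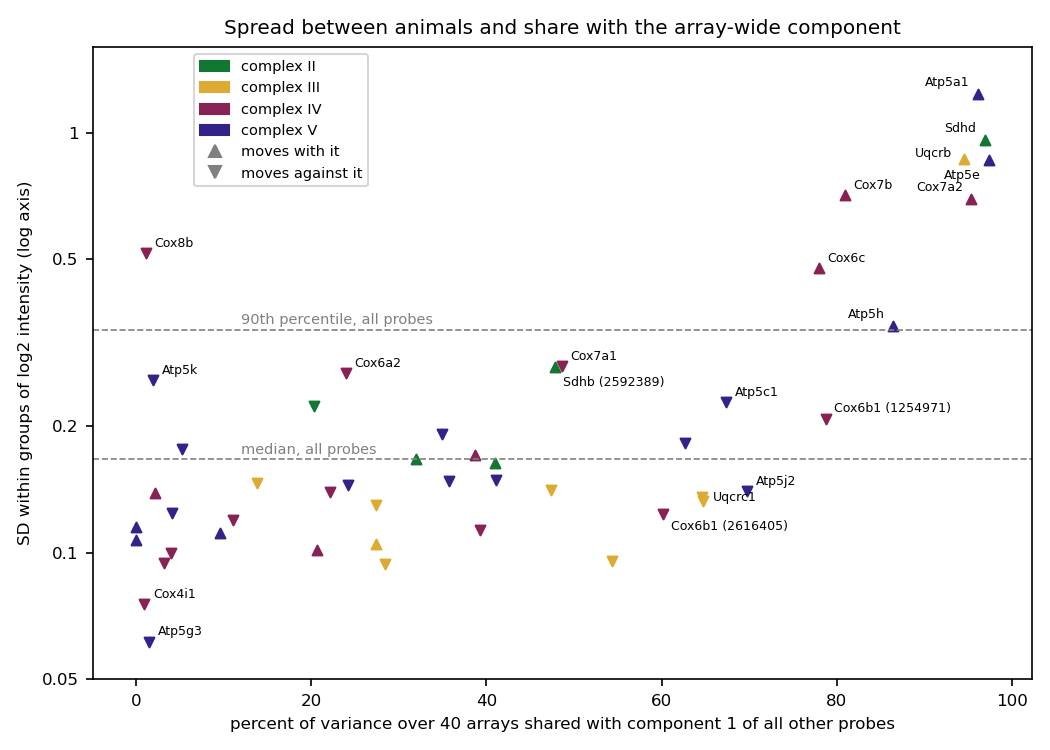
SD within groups of the log2 intensity (log axis) against the percent of variance shared with component 1 of all other probes, for 48 respiratory probes over 40 arrays. The 7 genes over 80% shared all move with the component and lie above the 90th percentile of SD, while Cox8b is variable with 1.20% shared.

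Promoter sequence is shown for 3 of the genes whose probes moved together, for Cox6a1, a steady gene, and for Cox8b. Sequences are the bases before the transcription start in RefSeq (GRCm38.p6), written 5′ to 3′ on the strand of the gene. Capitals mark matches on either strand to the NRF1 motif, to CCGGAAG (ETS factors such as GABP) and GGGCGG (SP1). The Sdhd stretch (chr9:50603850-50603900, minus strand) is short because the neighbouring gene Timm8b begins there. The others are Atp5e (chr2:174464102-174464351, minus strand), Cox7b (chrX:106015450-106015699, plus strand), Cox6a1 (chr5:115348959-115349208, minus strand) and Cox8b (chr7:140900447-140900696, minus strand).
Sdhd: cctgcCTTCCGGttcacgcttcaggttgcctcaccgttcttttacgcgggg
Atp5e: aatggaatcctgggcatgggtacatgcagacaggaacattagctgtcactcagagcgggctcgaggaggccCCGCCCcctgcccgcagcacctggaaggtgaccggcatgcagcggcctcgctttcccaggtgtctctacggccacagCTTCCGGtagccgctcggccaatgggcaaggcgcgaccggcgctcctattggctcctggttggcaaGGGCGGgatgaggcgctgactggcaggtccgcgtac
Cox7b: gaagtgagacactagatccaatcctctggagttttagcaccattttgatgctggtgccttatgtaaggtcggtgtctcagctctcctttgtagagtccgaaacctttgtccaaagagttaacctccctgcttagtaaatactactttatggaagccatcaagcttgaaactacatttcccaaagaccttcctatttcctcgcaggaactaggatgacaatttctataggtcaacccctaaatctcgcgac
Cox6a1: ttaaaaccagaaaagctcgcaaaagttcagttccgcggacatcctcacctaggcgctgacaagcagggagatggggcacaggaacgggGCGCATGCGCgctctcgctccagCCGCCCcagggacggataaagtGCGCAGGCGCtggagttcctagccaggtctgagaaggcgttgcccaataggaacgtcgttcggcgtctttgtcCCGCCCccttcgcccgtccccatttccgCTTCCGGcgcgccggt
Cox8b: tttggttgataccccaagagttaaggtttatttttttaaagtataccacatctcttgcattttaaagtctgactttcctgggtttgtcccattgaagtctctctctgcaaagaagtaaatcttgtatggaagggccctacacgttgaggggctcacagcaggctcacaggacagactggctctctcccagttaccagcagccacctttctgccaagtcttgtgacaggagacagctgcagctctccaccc

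Sdhd and Atp5e carry the ETS letters, Cox6a1 carries all 3 motifs, and the windows of Cox7b and Cox8b hold none of them. Among the 34 respiratory genes with a promoter in the table, 9 (26.5%) had the ETS motif within 250 bases upstream, as had 7.8% of 27025 genes. The NRF1 motif was found in 6 (17.6%) against 5.6% of all genes, the SP1 motif in 11 (32.4%) against 35.4%, and the short CCAAT box, which is not capitalised above, in 18 (52.9%) against 37.5%. ATGGCGG, the YY1 motif, was found in 1 (2.9%) against 2.6%, and TATAAA in 2 (5.9%) against 14.3%. Genes with the ETS letters included Atp5e, Sdhd and Atp5h, which moved with the component, Cox6b1, which moved against it, and the steady Cox6a1. In Sdhd the NRF1 letters lie beyond the stretch printed, over the neighbouring gene. A match is a string of letters in this window, and binding was not measured.

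Cox8b, the isoform of subunit VIII known from heart and skeletal muscle, was variable but shared only 1.20% of its variance with the component. Its level was 6.63 to 8.06 in LF/LF (median 7.47), 6.30 to 8.17 in LF/HF (median 7.18), 6.50 to 7.79 in HF/LF (median 7.03) and 6.40 to 7.75 in HF/HF (median 7.27). High and low animals occurred in all 4 groups, and the differences were -0.23 ± 0.20, 0.06 ± 0.22, -0.27 ± 0.21 and 0.01 ± 0.21 in the order of the comparisons above. The genes with the most similar pattern over the 40 arrays, picked out after their values were seen, were Wfdc2 (r = 0.97), Folr1 (r = 0.95), Defb11 (r = 0.94), Kcne2 (r = 0.94), Cldn2 (r = 0.94) and Trpm3 (r = 0.93). Folr1, Kcne2 and Cldn2, a folate receptor, a potassium channel subunit and a tight junction protein, are known from the choroid plexus, the epithelium that secretes cerebrospinal fluid.

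Of 10 choroid plexus markers 8 were on the array and all 8 were kept (Ttr, Kl, Folr1, Kcne2, Otx2, Aqp1, Clic6 and Calml4). Their mean level was 6.86 to 9.19 in LF/LF (median 8.78), 6.61 to 9.25 in LF/HF (median 8.19), 6.84 to 9.12 in HF/LF (median 8.34) and 6.91 to 9.01 in HF/HF (median 8.56). The median difference of the 8 markers was -0.31, 0.14, -0.43 and 0.07 in the order of the comparisons, with 0 calls. The mean level covered its range with no gap above 0.25 between neighbouring arrays. Cox8b varied with it (Pearson r = 0.93, Spearman rho = 0.91, both with permutation p = 1e-05, the smallest that 100000 orders can give, adjusted p = 0.000768 and 0.00096 over 384 relations between 48 probes and 8 marker lists). Within the groups r was 0.90 in LF/LF, 0.91 in LF/HF, 0.95 in HF/LF and 0.96 in HF/HF, and without the 2 arrays farthest from the median it was 0.94.

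With the muscle and heart markers Cox8b had r = -0.44 (Spearman rho = -0.44, permutation p = 0.00435 and 0.0045, adjusted p = 0.0363 and 0.0444, r = -0.43 without the 2 farthest arrays). Of the 384 relations 37 passed 0.05 by both measures, and all relations other than that of Cox8b with the choroid plexus had r between -0.69 and 0.67. Atp5o, a stalk subunit of ATP synthase, had the lowest with the neuron markers (rho = -0.77, adjusted permutation p = 0.000768 and 0.00096 for r and rho). Cox8b itself had r = 0.67 and rho = 0.67 with the oligodendrocyte markers (adjusted permutation p = 0.00128 and 0.00096, r = 0.74 without the 2 farthest arrays), and r = -0.56 and rho = -0.62 with the neuron markers (adjusted permutation p = 0.00494 and 0.00105, r = -0.59). The part of choroid plexus tissue in the Cox8b level was not tested.

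**Figure D5:**
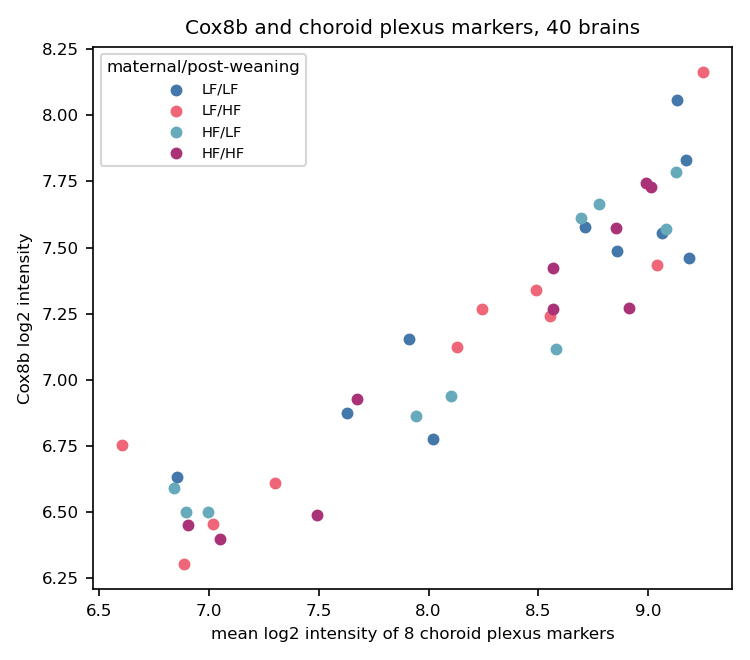
Log2 intensity of Cox8b against the mean log2 intensity of 8 choroid plexus markers in 40 brains, coloured by maternal/post-weaning diet. The points of all 4 groups lie along the same rising band (r = 0.93), with each group spanning most of it.

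Genes that work beside complexes II to V likewise had 0 calls. Of the 36 complex I subunits listed, which pass electrons from NADH to ubiquinone, 32 were kept and 0 passed in any comparison. At an unadjusted p under 0.05 between 0 and 3 of them passed. Ndufv3 (-0.16 ± 0.07) and Ndufb11 (0.10 ± 0.05) were among them for HF/HF against LF/HF, where 4.43% of all probes passed. Ndufb4 (-0.79 ± 0.37) did so for LF/HF against LF/LF, where 5.51% of all probes passed. Ndufb4, Ndufb10, Ndufb2, Ndufb5 and Ndufb9 shared over 80% of their variance with the component, as 5 of the 32, each gene read by its brightest kept probe.

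Of the other lists 0 members passed the adjusted p in any comparison. Their counts at an unadjusted p under 0.05 stand beside 4.43% of all probes for HF/HF against LF/HF and 5.51% for LF/HF against LF/LF. Among 15 kept assembly factors of complexes II to V, 0 to 2 had an unadjusted p under 0.05. The 2 were Cox19 (0.14 ± 0.06), a copper chaperone, and Tmem70 (0.13 ± 0.06), which assembles ATP synthase, both for LF/HF against LF/LF. Electron carriers and ATP export had 11 kept genes and at most 1 with an unadjusted p under 0.05. The phosphate carrier Slc25a3 was that gene for HF/HF against LF/HF (0.37 ± 0.18, 75.5% shared with the component). Regulators of respiratory gene transcription had 11 kept genes and at most 1 such gene, among them the coactivator Ppargc1b (-0.22 ± 0.09 for HF/HF against LF/HF) and the ETS factor Gabpa (0.12 ± 0.05 for LF/HF against LF/LF).

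Uncoupling and mitochondrial mass had 11 kept genes and at most 2, namely the outer membrane channel Vdac2 (-0.40 ± 0.17) and the import receptor Tomm22 (0.16 ± 0.07) for LF/HF against LF/LF. The cell type lists also had 0 calls. The number with an unadjusted p under 0.05 was 0 for neurons, astrocytes, oligodendrocytes, choroid plexus and muscle in every comparison. For LF/HF against LF/LF, where 5.51% of all probes passed it, 3 of 7 microglia genes (median difference of the list 0.17), 3 of 5 blood genes (0.13) and 1 of 5 endothelium genes (0.10) did so, all with a positive difference. For HF/HF against LF/HF, where 4.43% of all probes passed it, 4 of 5 blood genes did so with a negative difference (-0.34) and 1 of 5 endothelium genes with a positive one (-0.01). Both comparisons use the same LF/HF animals, and in the other comparisons and the interaction none of these lists had such a gene. A share over 80% with the component was not confined to respiratory genes. It was found for 3 of 11 electron carrier and ATP export genes and 2 of 11 genes of uncoupling and mitochondrial mass. Of the assembly factors 1 of 15 had it, and of the regulators 1 of 11. Among the cell types 2 of 8 astrocyte and 1 of 7 microglia genes had it, and no gene of the other cell type lists. The part of the listed cell types in the respiratory values was not tested.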

How the data were processed

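Whole brain RNA of 40 mice was hybridised to Illumina MouseRef-8 v2.0 arrays. The deposited values are fluorescence intensities on a linear scale, quantile-normalised by the authors in BeadStudio, whose version the sources do not state. After sorting, the columns matched to within 1.1 units, and the values ran from 48.4 to 30357.2. Groups and cages were taken from the labels.

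Intensities were log2-transformed without an offset. Background was, per array, the 95th percentile of the 1341 chemosensory receptor probes (olfactory, taste and vomeronasal) (81.6 to 90.9, median 87.0). Gene symbols came from the annotation of the array, where 23978 probes had 1 symbol, 0 had several and the others had none. Probes above background in 20 of 40 arrays were kept, and 13668 to 15807 probes were above it per array. Arrays carry no read depth, so that their number limits the precision. Pairs of groups were tested with limma 3.58.1 (R 4.3.3), 20 arrays per pair, with a mean-variance trend, two-sided, and the interaction on all 40. P-values were adjusted over 14381 probes by the Benjamini-Hochberg method. The fits were tested on simulated data. Lists used 1 probe per gene (highest mean). The smallest p of a permutation test was limited by 100000 random orders.

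The members and gene lists were chosen with earlier results of these data known. The rule for naming covered all complex II probes, the 5 smallest p of each comparison where no member was called, isoform sets, members with several probes, the 5 largest SDs, members below background and the 2 smallest p of each pathway list. Not all of these are described above. Coq7, Hspa9, Sdhaf1 and Esrra of the pathway lists are among those left out. The genes most similar to Cox8b and the steadiest members were added after their values were seen. Promoters were matched by gene identifier for 34 of 46 genes. Alternatives were other normalisations, filters, offsets, weights, cage terms, components as covariates, a regularised test and leaving out cages or arrays.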

Additional observations from a re-analysis of the deposited data

Results flagged for a closer look

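A value far from the rest of its group was looked for in 128 groups of 10 values, and 2 were found. This is a smaller share than the 1 in 20 groups, or about that, which chance gives. Both values came from the same LF/HF animal, of cage 9, which was the highest of its group. For Cox4i1 that animal was at 13.6151, with the nearest other animal at 13.42 and the lowest at 13.24. For the Atp5j probe ILMN_2611261, which measures coupling factor 6 of ATP synthase, it was at 9.13571, with the nearest at 8.87 and the lowest at 8.64.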

How the results depend on the processing

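Under each alternative that was run (24 to 28 per comparison), 0 respiratory probes passed the adjusted p. The median difference of the set had no fixed sign. It ran from -0.02 (without cage 11) to 0.01 (without cage 12) for HF/LF against LF/LF, from -0.04 (without cage 20) to 0.02 (cyclic loess) for HF/HF against LF/HF, from -0.03 (without cage 9) to 0.02 (array weights) for LF/HF against LF/LF and from -0.05 (without cage 20) to 0.02 (without cage 21) for HF/HF against HF/LF. The number at an unadjusted p under 0.05 was 0 to 4 for HF/LF against LF/LF. The 4 arose with the first 2 components computed without members as covariates, where 6.36% of all probes passed. For HF/HF against LF/HF it was 0 to 6 (6 without cage 14, where 8.62% of all probes passed). For LF/HF against LF/LF it was 0 to 8 (8 without cage 11, where 18.5% did). HF/HF against HF/LF had 0 to 2 (2 with the same 2 components, where 2.78% did). The interaction had 0 to 3 (3 with array weights, where 7.23% did). A direction counted as turned only where both differences exceeded 1 SE. This occurred for 4 differences of the 32 named probes, all for LF/HF against LF/LF, and not for the other 2896. Cox7a2 went from -0.30 to 0.122 with the first component as a covariate, to 0.122 with the component computed without members and to 0.145 with the first 2 such components, and Uqcrb from -0.50 to 0.0704 with the first 2. The alternatives with components computed without the members were chosen after seeing the data. The cause was not tested.

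No paired analysis was possible because the labels give no replicate numbers, and the numbers used here follow accession order only. The labels do give the cage, and with it as a fixed effect 0 respiratory probes had an unadjusted p under 0.05 in either comparison of the post-weaning diet and in the interaction. Cage as a fixed effect was not fitted for the maternal diet, since each cage had dams of 1 diet. Litter mates are not independent, yet the main fits and the random orders treated all animals as independent. The p-values measure the spread between these animals and not between dams. For the maternal diet, which was given to dams, they can be too small where litter mates are alike. Uqcrfs1, Atp5k and the Sdhb probe ILMN_2592389 were above background in 21, 22 and 25 of 40 arrays.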
